A study of Mus musculus with 6 samples.

Results

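The subunits of the mitochondrial respiratory chain and of ATP synthase that the nucleus encodes were followed in single cells from mouse pancreatic tumors, one mouse at a time. They were taken by name. Symbols of the deposited feature table were kept when they consist of Ndufa, Ndufb, Ndufc, Ndufs or Ndufv and a number, with nothing after it. Sdha, Sdhb, Sdhc and Sdhd were kept too. So was every symbol that starts with Uqcr, Cox4 to Cox8 or Atp5 and goes on only in lowercase letters or digits. This gave 85 features under 84 symbols among 34187 features in all, since Atp5o is listed under 2 gene IDs (ENSMUSG00000022956 and ENSMUSG00000116933, of which only the former was well detected). By name, 37 belong to complex I, 4 to complex II, 8 to complex III, 18 to complex IV and 18 to ATP synthase. Ndufa4 counts here with complex I because of its name, although its protein is now placed in complex IV.

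Oxidative phosphorylation (OXPHOS) couples the oxidation of nutrients to ATP synthesis in the inner mitochondrial membrane. Complex I takes electrons from NADH and complex II from succinate, complex III passes them to cytochrome c, and complex IV hands them to oxygen. The proton gradient that complexes I, III and IV build drives ATP synthase. Except for complex II, each complex has a core of catalytic subunits, surrounded by small accessory subunits that are needed for assembly and stability. The mitochondrial genome encodes part of the core of every complex but II, and the nucleus encodes the other subunits, most of them by the genes followed here. In lymphocytes this machinery is known to expand when a resting cell is activated and divides, and macrophages and carcinoma cells differ widely in how far they rely on it.

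C57BL/6 mice carrying subcutaneous tumors of 6694c2vTRP1, a pancreatic ductal adenocarcinoma (PDAC) line of the KPC model, were injected intraperitoneally with PBS, with 26 µg of mono-IL10 (5 mice) or with 30.6 µg of IL10/2-Trikine (5 mice). Each mouse received 2 doses, given every other day from day 8, and tumors were taken on day 14. Mono-IL10 is a monomeric, engineered form of interleukin 10, and IL10/2-Trikine is the same cytokine linked to a non-signaling interleukin 2 variant that brings the interleukin 2 receptor β chain into the complex. The study used both males and females for this tumor model, and the sex and age of the mice of this experiment are not given in the sources used here. Cells were enriched for CD45, a surface protein of leukocytes, on beads, tagged with a hashtag per mouse (5 hashtags in every group) and run as 1 gene expression library per treatment. Treatment and library therefore cannot be told apart, and p-values measure the spread between the 5 mice within each library.

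The 3 libraries held 44412 (PBS), 30528 (mono-IL10) and 55504 (IL10/2-Trikine) cell barcodes with 515236552, 458860129 and 364814102 UMIs (unique molecular identifiers, one per captured RNA molecule). Of these barcodes, 34518, 24060 and 46104 had at least 1000 genes and at most 10% mitochondrial UMIs. The libraries shared 250 to 441 barcodes pair by pair. The PBS and IL10/2-Trikine libraries held more barcodes than the number of cells the paper states were loaded per sample. In IL10/2-Trikine this also held for the barcodes that passed. Barcodes and cells therefore cannot be equated, and the part of this in the results was not tested. A single mouse could be given to 67.6%, 73.6% and 55.7% of the passing barcodes by hashtag. The authors annotated 516, 843 and 725 T and NK cells in PBS, mono-IL10 and IL10/2-Trikine. Their table gave a mouse for 348, 635 and 400 of these, which were used here, and no hashtag for the other 701. The hashtag calls made here put 0 of the former in another mouse.

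Levels were followed in 4 classes of cells. NK cells and T cells are the authors' annotated clusters, with 99 PBS, 189 mono-IL10 and 219 IL10/2-Trikine NK cells and 249, 446 and 181 T cells assigned to a mouse. Macrophage-like cells (8342, 6038 and 5059) and tumor-like cells (5737, 4856 and 10767) are clusters named from marker genes. Tumor-like cells carried Krt8, Krt18, Epcam and the other epithelial markers at a summed 53.9, 53.1 and 42.3 UMIs per 10000 on average over the PBS, mono-IL10 and IL10/2-Trikine mice, although the labels describe CD45+ tumor-infiltrating lymphocytes. Macrophage markers stood at 90.5, 109 and 108 UMIs per 10000 in macrophage-like cells. The NK cells of mono-IL10 mouse 3, 9 in number, were left out, so that 4 mono-IL10 mice entered every NK test and every NK level per mouse. Levels of the authors' clusters that are pooled over mice include these 9 cells. In these summed cells, more of a transcript per cell and a different mix of cells within a class cannot be told apart.

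All OXPHOS genes together made up between 2.17% and 3.53% of the gene UMIs of a mouse, depending on the class. In T cells the summed level was 2.69%, 2.69%, 2.57%, 2.69% and 2.73% in PBS mice 1 to 5, 3.0%, 2.89%, 2.91%, 2.85% and 2.97% in the mono-IL10 mice and 2.92%, 3.09%, 3.03%, 3.03% and 2.96% in the IL10/2-Trikine mice. Every treated mouse lay above every PBS mouse, and the groups given cytokine overlapped. The means were 2.67% ± 0.0592 (SD, n = 5), 2.92% ± 0.06 and 3.01% ± 0.064. NK cells stood at 2.75%, 2.42%, 2.59%, 2.29% and 2.38% in the PBS mice, at 2.6%, 2.61%, 2.54% and 2.82% in the 4 mono-IL10 mice and at 2.86%, 2.87%, 2.92%, 2.82% and 2.81% in the IL10/2-Trikine mice, where all 5 lay above the highest PBS mouse.

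Tumor-like cells had the highest summed level. It was 3.07%, 3.05%, 3.04%, 3.01% and 2.99% in the PBS mice, 3.10%, 3.15%, 3.18%, 3.09% and 2.98% in the mono-IL10 mice and 3.53%, 3.32%, 3.35%, 3.38% and 3.21% in the IL10/2-Trikine mice. The IL10/2-Trikine mice lay above all others, whereas PBS and mono-IL10 overlapped. Macrophage-like cells had the lowest, with 2.26%, 2.17%, 2.32%, 2.23% and 2.20% in PBS, 2.37%, 2.23%, 2.26%, 2.19% and 2.18% in mono-IL10 and 2.42%, 2.50%, 2.27%, 2.34% and 2.29% in IL10/2-Trikine mice. These 3 groups overlapped, and PBS and mono-IL10 had nearly the same mean (2.24% ± 0.0581 and 2.25% ± 0.0783). No test was made of these sums, whose members were chosen with results of these data known.

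**Figure D1:**
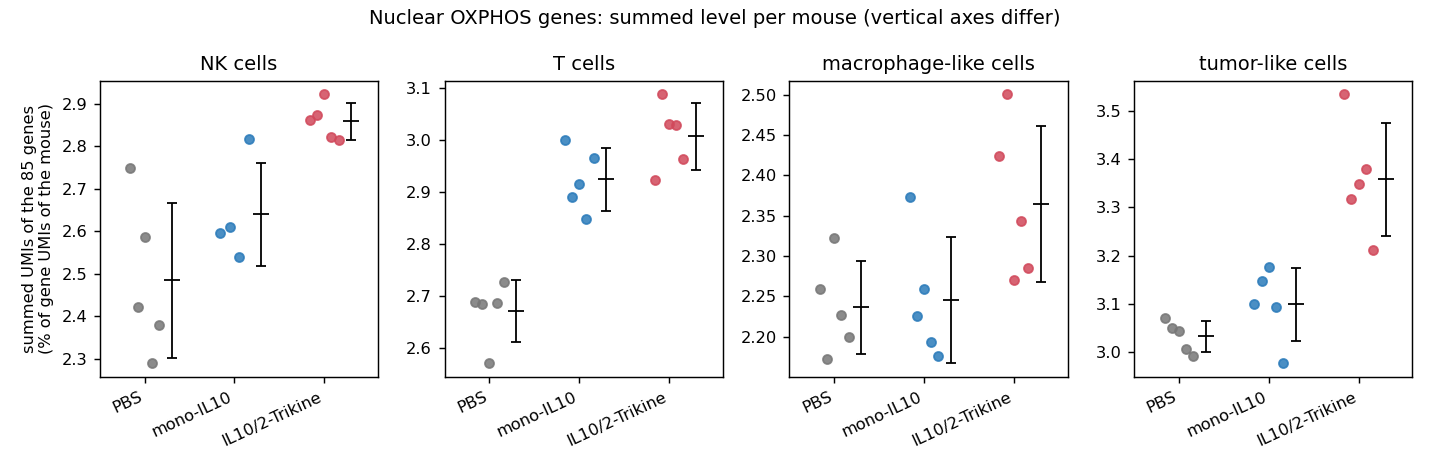
Summed level of the nuclear OXPHOS genes, in percent of all gene UMIs, for each mouse (points) in 4 classes of cells, with the mean and SD of each treatment as a bar. The vertical axes differ between panels and do not start at 0. The 5 IL10/2-Trikine mice, from 3.21% to 3.53% in tumor-like cells, lie above all PBS mice there and in NK and T cells, and overlap with PBS in macrophage-like cells.

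The complexes did not all follow the sum. In tumor-like cells, complex I made up 0.943% of UMIs in PBS mice, 0.954% in mono-IL10 mice and 1.05% in IL10/2-Trikine mice, complex IV 0.897%, 0.925% and 0.995%, and ATP synthase 0.883%, 0.904% and 0.971%. Complex II, which is also an enzyme of the tricarboxylic acid cycle, went the other way, with 0.0512%, 0.0503% and 0.0467%, and its IL10/2-Trikine mice (0.0446% to 0.0480%) lay below its PBS mice (0.0505% to 0.0519%). Complex III was at 0.258%, 0.265% and 0.299%. The 13 subunits that the mitochondrial genome encodes were summed too. In tumor-like cells they took 2.13%, 2.27% and 2.36% of UMIs in PBS, mono-IL10 and IL10/2-Trikine mice. The difference between IL10/2-Trikine and PBS had p = 0.00794 in an exact two-sided permutation test over mice, the smallest that 5 against 5 allows, and 0.0952 after Benjamini-Hochberg adjustment over the 12 such tests made. None of these tests passed after adjustment.

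Within the authors' clusters, the summed level differed between cell states as well as between treatments. Cells were pooled over mice here, and the values are a description. Cycling T cells had 2.98%, 3.34% and 3.11% in PBS, mono-IL10 and IL10/2-Trikine (43, 99 and 94 cells), above naive CD4 T cells at 2.03% and 2.26% in PBS and mono-IL10 (19 and 29 cells, with none in IL10/2-Trikine). Naive CD8 T cells were higher, at 2.48% and 2.83% (31 and 121 cells). Regulatory T cells stood at 2.52%, 2.59% and 3.02% (43, 50 and 20 cells). Activated CD4 T cells showed no such order, with 2.72%, 2.87% and 2.72%. With the cycling regulatory T cells, cycling cells were 55 of 249 T cells in PBS (22.1%), 105 of 446 in mono-IL10 (23.5%) and 105 of 181 in IL10/2-Trikine (58.0%). NK cells outside the cycling cluster had 2.47% ± 0.186 (SD, n = 5), 2.58% ± 0.0863 (n = 4) and 2.82% ± 0.0413 (n = 5) per mouse.

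**Figure D2:**
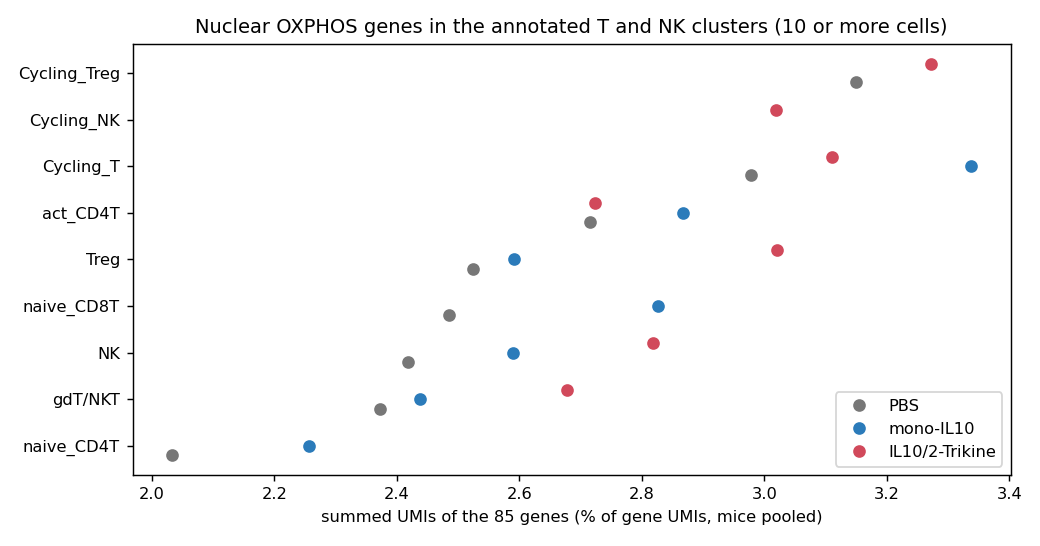
Summed level of the nuclear OXPHOS genes, in percent of gene UMIs pooled over mice, in the authors' T and NK clusters that held at least 10 cells of a treatment, with PBS in grey, mono-IL10 in blue and IL10/2-Trikine in red. Cycling clusters lie to the right, at 2.98% to 3.34% for cycling T cells, and naive CD4 T cells lie lowest.

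The clusters of tumor-like and macrophage-like cells were made here from expression and are described only. The 9 tumor-like clusters all had a higher mean in IL10/2-Trikine than in PBS mice. The cluster led by Ttr went from 2.97% to 3.27%, and the dividing cluster led by Ube2c and Birc5 from 3.52% to 3.80%. The gap was smallest in the cluster led by Flnc and Crisp1, at 2.64% ± 0.0350 and 2.74% ± 0.113. The largest macrophage-like cluster was a different one in each treatment. It was led by Cx3cr1 and Hpgds in PBS (17.2% of the class, with 1.97% OXPHOS), by Cd163, Nrg1 and Folr2 in mono-IL10 (20.2%, with 2.13%) and by Pf4 and F13a1 in IL10/2-Trikine (23.1%, with 2.40%). Unlike the tumor-like clusters, these did not all rise. In PBS, mono-IL10 and IL10/2-Trikine, the Cx3cr1 cluster was at 1.97%, 2.07% and 2.09%. The Cd163 and Nrg1 cluster was at 1.84%, 2.13% and 2.01%, and the Pf4 cluster at 2.49%, 2.48% and 2.40%.

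Factors that are known to govern many OXPHOS genes include NRF1, ETS proteins and YY1, and letters of their motifs were looked for in the promoters. Promoters of 69 of the 85 genes were matched by symbol in RefSeq (mouse build GRCm38.p6, 250 bases before to 50 after the gene start), and 3 motifs were searched on both strands. The core letters CGCATGC of the NRF1 motif (nuclear respiratory factor 1) were found in the promoters of 15.9% of these genes, against 4.01% of all 27025 genes. CCGGAAG, the ETS motif, stood in 24.6% against 9.93%, and AAGATGG, the core of the YY1 motif, in 15.9% against 7.28%. At least 1 of the 3 was present in 32 of the 69 (46.4%), against 19.3% of all genes, and CGCATGC can overlap with its own reverse complement. A match is a description of the letters and not a bound site. The shares of all genes are not matched for expression or base composition, so they alone do not show enrichment. The part of these 2 was not tested. The promoters of 3 genes that the results below return to are shown: Atp5k and Ndufa3, which rose with IL10/2-Trikine in all 4 classes, and Sdhb, which fell in tumor-like cells. Their windows are chr5:108434350-108434649 on the minus strand, chr7:3617123-3617422 on the plus strand and chr4:140961021-140961320 on the plus strand. Capitals mark a motif: the NRF1 and then the ETS motif in Atp5k and in Sdhb, and the YY1 motif in Ndufa3. In Atp5k the NRF1 letters are met on both strands.
Atp5k: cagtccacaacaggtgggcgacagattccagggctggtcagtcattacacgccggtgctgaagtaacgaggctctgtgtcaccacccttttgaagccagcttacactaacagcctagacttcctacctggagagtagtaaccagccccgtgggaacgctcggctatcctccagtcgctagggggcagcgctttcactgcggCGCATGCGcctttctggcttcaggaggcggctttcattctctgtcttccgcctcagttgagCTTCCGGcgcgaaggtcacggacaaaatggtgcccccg
Ndufa3: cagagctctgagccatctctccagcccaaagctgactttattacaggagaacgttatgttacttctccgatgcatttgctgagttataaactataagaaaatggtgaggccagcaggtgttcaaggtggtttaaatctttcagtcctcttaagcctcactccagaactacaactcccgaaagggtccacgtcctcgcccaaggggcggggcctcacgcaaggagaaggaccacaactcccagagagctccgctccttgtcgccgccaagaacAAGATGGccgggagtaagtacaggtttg
Sdhb: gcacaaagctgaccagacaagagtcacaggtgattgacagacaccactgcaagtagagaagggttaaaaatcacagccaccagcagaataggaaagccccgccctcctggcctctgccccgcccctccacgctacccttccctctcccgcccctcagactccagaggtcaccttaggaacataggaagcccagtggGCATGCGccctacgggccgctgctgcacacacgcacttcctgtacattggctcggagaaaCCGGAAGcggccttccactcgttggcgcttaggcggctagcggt
Of the genes with a promoter here, 19 of the 37 that rose with IL10/2-Trikine in tumor-like cells held at least 1 of the motifs, as did 4 of the 8 that fell and 9 of the 22 that did not pass the test.

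Tumor-like cells gave the deepest view of single genes. From here on, levels are UMIs per 10000 gene UMIs of a mouse, scaled by TMM (trimmed mean of M values), and listed in the order of mice 1 to 5. Changes are log2 fold changes ± SE from edgeR's quasi-likelihood test on the summed counts per mouse, with Benjamini-Hochberg adjustment over all genes tested in that class, and a gene is said to rise or fall only at an adjusted p under 0.05. With IL10/2-Trikine against PBS, 43 of the 80 OXPHOS genes tested rose and 9 fell, where 9.82% of all genes tested rose and 11.9% fell. Scaled to total UMIs, 41 rose and 15 fell. The median over the OXPHOS genes was 0.15 on the log2 scale, against 0.0012 over all genes. The shares of all genes, here and below, are not matched for abundance. Median log2 abundance in edgeR was 8.08 for OXPHOS genes and 3.72 for all genes in tumor-like cells. It was 7.69 and 4.22 in macrophage-like cells, 8.50 and 7.06 in T cells and 8.43 and 7.43 in NK cells. A small change passes more easily in an abundant gene, so these shares alone do not show enrichment. The part of abundance was not tested. By complex, 20 of 37 rose and 3 fell in complex I, 0 and 2 of 4 in complex II, 4 and 1 of 8 in complex III, 9 and 0 of 13 in complex IV, and 10 and 3 of 18 in ATP synthase.

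Apart from the rare isoform Cox7a1, described with the tissue isoforms, the largest rises were in Atp5mpl, Ndufb1, Ndufa3 and Ndufb4, followed by Ndufc1 and Atp5k. Atp5mpl, a small proteolipid attached to ATP synthase, was at 2.45, 2.5, 2.57, 2.44 and 2.5 in the PBS mice, 3.02, 3.18, 3.1, 2.92 and 2.81 in the mono-IL10 mice and 3.8, 3.63, 3.63, 3.71 and 3.52 in the IL10/2-Trikine mice. The 3 groups did not overlap, and the change against PBS was 0.55 ± 0.036, adjusted p = 4.95e-08. Atp5k, the e subunit that helps ATP synthase dimers form, was at 1.38, 1.27, 1.42, 1.36 and 1.26 in the PBS mice, 1.61, 1.61, 1.62, 1.53 and 1.5 in the mono-IL10 mice and 1.87, 1.82, 1.84, 1.85 and 1.75 in the IL10/2-Trikine mice, again without overlap (0.45 ± 0.039, adjusted p = 1.02e-06). In complex I the accessory subunit Ndufb1 was at 1.26, 1.28, 1.33, 1.31 and 1.25 in the PBS mice, 1.6, 1.59, 1.5, 1.45 and 1.52 in the mono-IL10 mice and 1.89, 1.82, 1.91, 1.78 and 1.76 in the IL10/2-Trikine mice. PBS mice were lowest and IL10/2-Trikine mice highest, with no overlap (0.51 ± 0.036, adjusted p = 1.39e-07). Ndufa3, another accessory subunit of its membrane arm, was at 1.85, 1.73, 1.84, 1.78 and 1.73 in the PBS mice, 2.0, 2.09, 2.05, 2.03 and 1.89 in the mono-IL10 mice and 2.77, 2.43, 2.51, 2.42 and 2.42 in the IL10/2-Trikine mice, with the same order and no overlap (0.49 ± 0.042, adjusted p = 1.00e-06).

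Ndufc1, also of the membrane arm, was at 2.8, 2.53, 2.64, 2.64 and 2.59 in the PBS mice, 2.86, 3.11, 2.94, 2.88 and 2.76 in the mono-IL10 mice and 3.78, 3.55, 3.67, 3.67 and 3.5 in the IL10/2-Trikine mice. All 5 IL10/2-Trikine mice lay above all others (0.46 ± 0.038, adjusted p = 6.82e-07). Ndufb4 differed in its order of groups, since it was at 0.203, 0.195, 0.191, 0.199 and 0.189 in the PBS mice, 0.2, 0.197, 0.18, 0.215 and 0.18 in the mono-IL10 mice and 0.292, 0.271, 0.246, 0.28 and 0.267 in the IL10/2-Trikine mice. PBS and mono-IL10 overlapped fully, and only the IL10/2-Trikine mice were higher (0.47 ± 0.056, adjusted p = 3.01e-05). Cox6c, a nuclear subunit of complex IV and one of the most abundant of these transcripts, was at 6.86, 7.01, 7.08, 6.76 and 7.03 in the PBS mice, 8.15, 8.51, 8.55, 7.94 and 7.56 in the mono-IL10 mice and 9.58, 8.88, 8.93, 8.98 and 8.57 in the IL10/2-Trikine mice, with no overlap between groups (0.37 ± 0.038, adjusted p = 7.28e-06). Among the other genes taken as a fixed panel of the complexes, Ndufa1 rose by 0.25 (adjusted p = 0.000193), Uqcrq of complex III by 0.18 (adjusted p = 0.00637) and Cox4i1 by 0.12 (adjusted p = 0.0255).

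The 9 genes that fell with IL10/2-Trikine in tumor-like cells included catalytic subunits, and their changes were smaller. Ndufv2, an iron-sulfur core subunit of the part of complex I that oxidizes NADH, was at 1.39, 1.4, 1.37, 1.32 and 1.32 in the PBS mice, 1.47, 1.4, 1.56, 1.37 and 1.41 in the mono-IL10 mice and 1.21, 1.21, 1.21, 1.21 and 1.16 in the IL10/2-Trikine mice. The IL10/2-Trikine mice lay below all others (-0.18 ± 0.037, adjusted p = 0.00281). Sdhb, the iron-sulfur subunit of complex II, was at 1.62, 1.66, 1.7, 1.56 and 1.56 in the PBS mice, 1.87, 1.78, 1.84, 1.66 and 1.69 in the mono-IL10 mice and 1.42, 1.53, 1.48, 1.53 and 1.39 in the IL10/2-Trikine mice, and no IL10/2-Trikine mouse reached the lowest PBS mouse (-0.14 ± 0.042, adjusted p = 0.0286). Sdhc, a membrane anchor of complex II, was at 1.5, 1.57, 1.45, 1.49 and 1.51 in the PBS mice, 1.58, 1.61, 1.73, 1.56 and 1.53 in the mono-IL10 mice and 1.35, 1.37, 1.27, 1.34 and 1.32 in the IL10/2-Trikine mice, likewise without overlap (-0.17 ± 0.037, adjusted p = 0.00302). Sdha, the flavoprotein that oxidizes succinate, did not pass the test (0.031 ± 0.037, adjusted p = 0.599).

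ATP synthase held genes of both directions. Atp5b, the catalytic β subunit, was at 2.96, 2.98, 3.06, 2.96 and 2.91 in the PBS mice and 2.7, 2.88, 2.9, 2.73 and 2.66 in the IL10/2-Trikine mice, which were all lower (-0.10 ± 0.034, adjusted p = 0.0455). Atp5pb, the b subunit of its stalk, was at 3.44, 3.53, 3.46, 3.31 and 3.31 in PBS and 3.18, 3.03, 3.03, 3.03 and 2.92 in IL10/2-Trikine mice (-0.17 ± 0.034, adjusted p = 0.00208), and Atp5c1, the γ subunit of the rotor, changed by -0.13 ± 0.039, adjusted p = 0.0288. The remaining genes that fell were Uqcrfs1, the Rieske iron-sulfur protein of complex III (-0.13), and the accessory subunits Ndufa9 (-0.13) and Ndufa8 (-0.13). Of the fixed panel, Ndufs1 (-0.046 ± 0.034), Uqcrc1 (-0.077 ± 0.035) and Atp5g1 (0.077 ± 0.058) did not pass. Beside these changes, a tumor-like cell held 10192 to 12173 UMIs on average in the IL10/2-Trikine mice and 26588 to 32362 in the PBS mice. The summed tumor markers were lower (42.3 against 53.9), and ribosomal protein genes took 20.2% against 17.9% of UMIs. Macrophage markers stood at 3.98 UMIs per 10000 in IL10/2-Trikine mouse 1 and from 0.745 to 1.13 in the other 4, against 0.605 to 1.39 in PBS, with all 10 of 10 detected in both groups. NK markers stood at 0.0418 to 0.101 against 0.0175 to 0.0296 (6 of 6). Their part in the changes was not tested. Every cell with a UMI of Mki67 or Top2a, genes of dividing cells, was then left out. A cell with more UMIs is more likely to hold such a UMI, so this filter depends on depth. It left 2326 of 5737, 1856 of 4856 and 5654 of 10767 tumor-like cells in PBS, mono-IL10 and IL10/2-Trikine. Of the OXPHOS genes, 40 rose there while 2 fell. There Sdhb changed by -0.063 (adjusted p = 0.426) and Ndufv2 by -0.087 (adjusted p = 0.251), and neither passed.

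**Figure D3:**
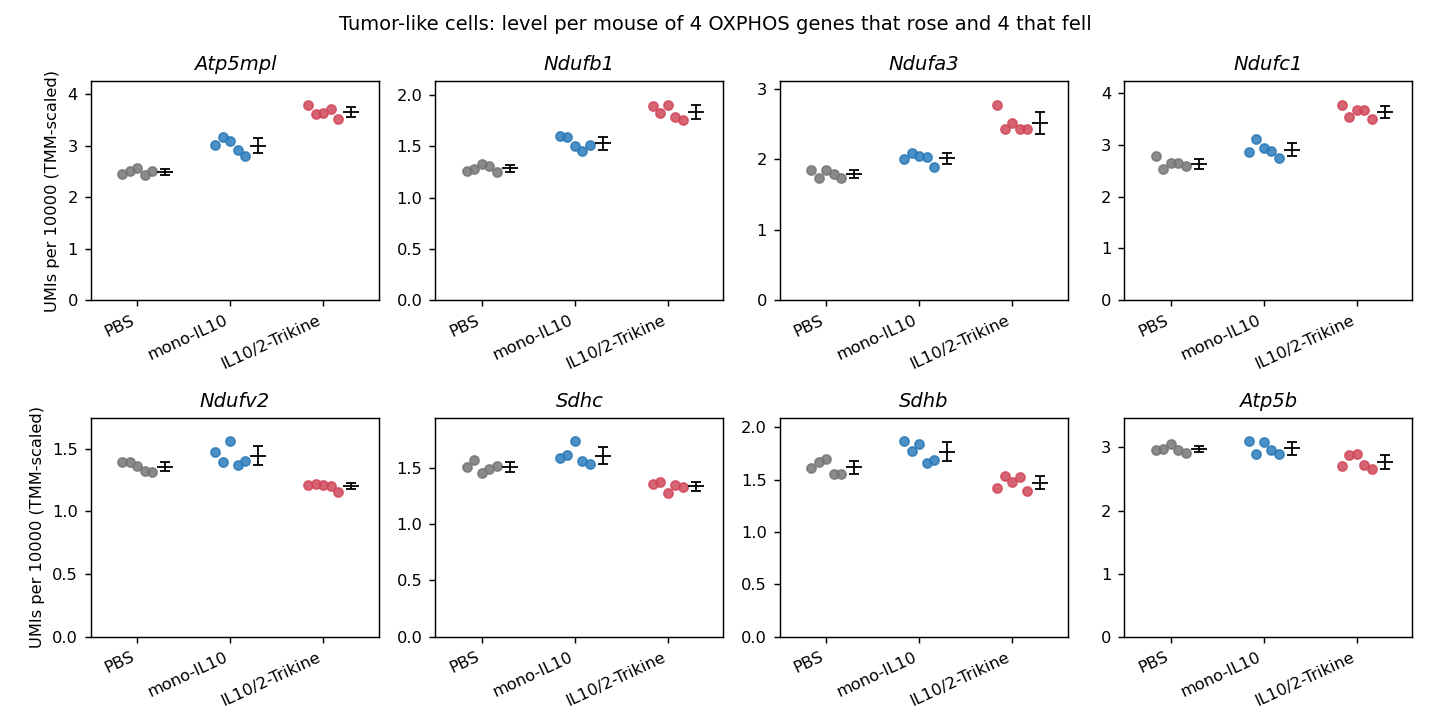
Levels of 8 nuclear OXPHOS genes in tumor-like cells, in UMIs per 10000 with TMM scaling, for each mouse (points), with the mean and SD of each treatment as a bar. Atp5mpl, Ndufb1, Ndufa3 and Ndufc1 are highest in the 5 IL10/2-Trikine mice, and Ndufv2, Sdhc, Sdhb and Atp5b are lowest in them.

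Mono-IL10 against PBS raised a smaller set in tumor-like cells. Of the 80 genes, 29 rose and 0 fell, where 3.78% of all genes rose and 2.18% fell, but with total UMIs as the scale 7 rose and 2 fell, as that scale moves the median of all genes to -0.11 and that of the OXPHOS genes from 0.12 to 0.02. Complex I and ATP synthase gave 10 each of the 29, with 7 of complex IV, 2 of complex III and 0 of complex II. Atp5mpl (0.27 ± 0.036, adjusted p = 0.000692) and Ndufb1 (0.25 ± 0.036, adjusted p = 0.00117) led, as they did with IL10/2-Trikine, followed by Atp5o, which links the stalk of ATP synthase to its catalytic head (0.24 ± 0.041, adjusted p = 0.00406), and Atp5k (0.24 ± 0.038, adjusted p = 0.00268). Both comparisons use the same PBS mice. UMIs a cell were 36595 to 44600 in the mono-IL10 mice against 26588 to 32362 in the PBS mice, ribosomal protein genes took 18.6% to 19.8% against 17.5% to 18.4% of UMIs, and macrophage markers stood at 0.293 to 0.682 against 0.605 to 1.39 UMIs per 10000 (10 of 10 detected). Their part was not tested. The count rested on few mice: it was 18 without PBS mouse 1, 16 without PBS mouse 3 or mono-IL10 mouse 1, 14 without PBS mouse 4 and 13 without PBS mouse 5, mono-IL10 mouse 2 or mono-IL10 mouse 3.

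Set directly against mono-IL10, IL10/2-Trikine separated the OXPHOS genes of tumor-like cells into both directions. Of 80 genes, 26 rose and 19 fell, where 16.4% of all genes rose and 16.9% fell, and with total UMIs as the scale 43 rose and 11 fell. Ndufb4 (0.48 ± 0.056, adjusted p = 1.66e-05), Ndufa3 (0.32 ± 0.042, adjusted p = 3.99e-05), Ndufc1 (0.32 ± 0.038, adjusted p = 1.69e-05) and Atp5mpl (0.28 ± 0.036, adjusted p = 2.93e-05) rose most. Atp5c1 was at 2.95, 2.91, 3.04, 2.79 and 2.75 in the mono-IL10 mice and 2.52, 2.38, 2.27, 2.39 and 2.39 in the IL10/2-Trikine mice, with no overlap (-0.27 ± 0.039, adjusted p = 8.61e-05). Sdhc (-0.27 ± 0.037, adjusted p = 5.79e-05), Sdhb (-0.26 ± 0.042, adjusted p = 0.000211) and Ndufv2 (-0.26 ± 0.037, adjusted p = 6.96e-05) fell as well. Sdha of the same complex as Sdhb and Sdhc rose (0.12 ± 0.037, adjusted p = 0.0182). By complex, and of the genes tested, 15 of 37 rose and 9 fell in complex I, 1 and 2 of 4 in complex II, 2 and 3 of 8 in complex III, 3 and 1 of 13 in complex IV, and 5 and 4 of 18 in ATP synthase. Beside these changes, a tumor-like cell held 10192 to 12173 UMIs on average in the IL10/2-Trikine mice and 36595 to 44600 in the mono-IL10 mice. Tumor markers stood at 40.1 to 43.8 against 49.5 to 57.0 UMIs per 10000, macrophage markers at 0.745 to 3.98 against 0.293 to 0.682 (10 of 10 detected in both groups) and NK markers at 0.0418 to 0.101 against 0.0161 to 0.0259 (6 of 6). Their part in the changes was not tested.

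**Figure D4:**
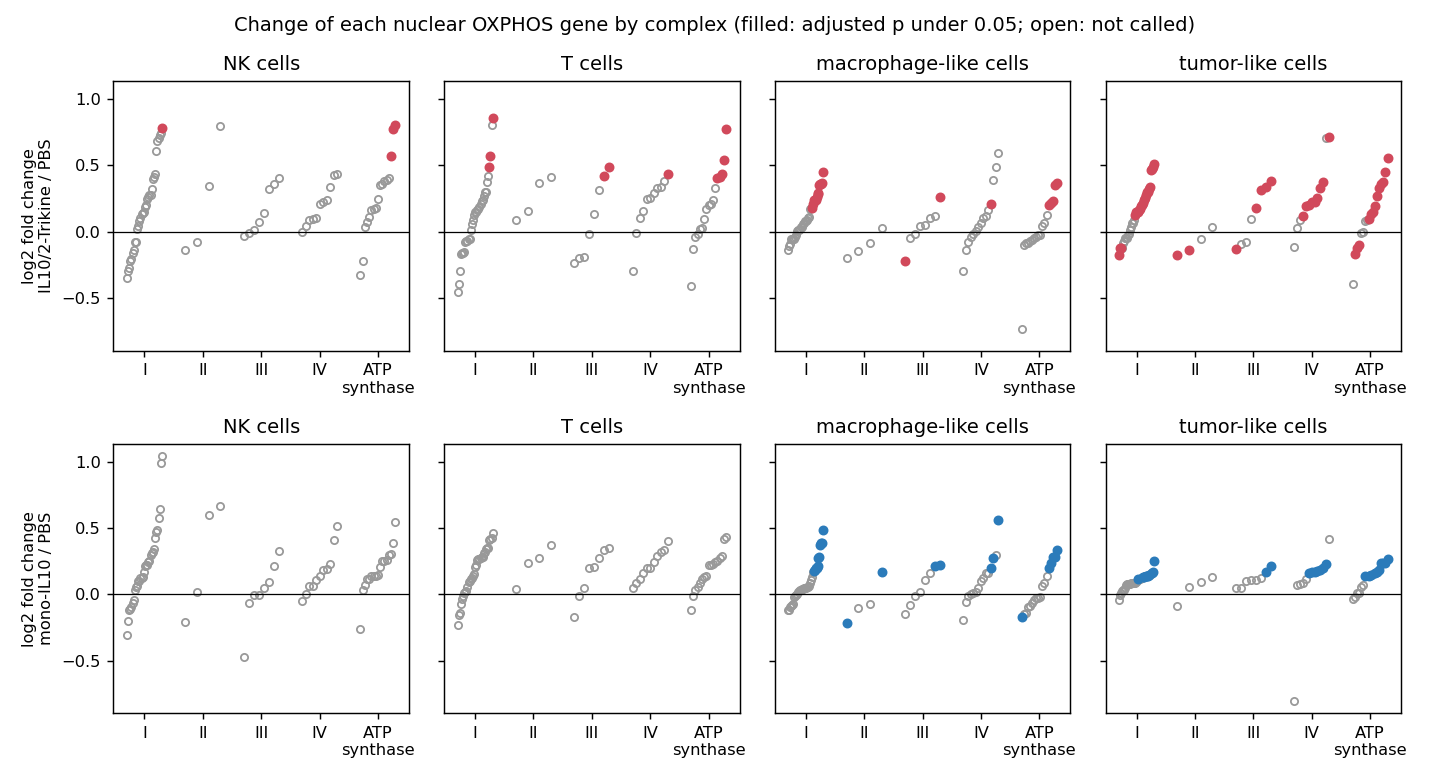
Log2 fold change of each tested nuclear OXPHOS gene by complex, in 4 classes of cells (columns), for IL10/2-Trikine against PBS (top) and mono-IL10 against PBS (bottom), with TMM scaling. Filled points have an adjusted p under 0.05. In tumor-like cells with IL10/2-Trikine 43 filled points lie above 0 and 9 below, 2 of these in complex II, while the 29 filled points of mono-IL10 all lie above 0 (7 above and 2 below when scaled to total UMIs).

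In macrophage-like cells, IL10/2-Trikine against PBS raised 20 of 82 OXPHOS genes and lowered 1, where 8.33% of all genes rose and 8.61% fell. Of the 20, 13 belong to complex I, 5 to ATP synthase and 1 each to complexes III and IV. The median over all OXPHOS genes tested was only 0.048 on the log2 scale. Ndufa3 was at 2.16, 2.09, 2.19, 2.21 and 2.15 in the PBS mice, 2.92, 2.91, 2.82, 2.7 and 2.61 in the mono-IL10 mice and 2.98, 3.11, 2.86, 3.05 and 2.73 in the IL10/2-Trikine mice. Both cytokine groups lay above every PBS mouse and overlapped with each other (0.45 ± 0.054, adjusted p = 1.32e-05). Ndufb1 (0.37 ± 0.064, adjusted p = 0.000466), Atp5k (0.36 ± 0.067, adjusted p = 0.000817) and Ndufb4 (0.36 ± 0.10, adjusted p = 0.0199) followed. Uqcrfs1 was the gene that fell, from 0.931, 1.06, 1.03, 0.931 and 0.944 in the PBS mice to 0.816, 0.934, 0.762, 0.812 and 0.843 in the IL10/2-Trikine mice, which overlapped in part (-0.22 ± 0.063, adjusted p = 0.0188). Of the fixed panel only Cox6c passed (0.21 ± 0.054, adjusted p = 0.0124). With every mouse thinned to 1 total, 10 genes rose, and with no filter on low counts 10 rose and 1 fell. Beside these changes, a macrophage-like cell held 2755 to 3435 UMIs on average in the IL10/2-Trikine mice and 5284 to 6875 in the PBS mice. Tumor markers stood at 0.894 to 1.16 against 0.591 to 0.991 UMIs per 10000 (7 of 7 detected in both groups), and T cell markers at 0.411 to 0.82 against 0.326 to 0.438 (6 of 6). NK markers stood at 0.0774 to 0.147 against 0.0473 to 0.074 (6 of 6), without overlap. Their part in the changes was not tested.

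The change with mono-IL10 in macrophage-like cells depended on the scale. Of 82 genes 22 rose and 2 fell, where 14.2% of all genes rose and 13.9% fell, but with total UMIs as the scale 8 rose and 9 fell, and that scale moves the median of all genes to -0.10. Thinned to 1 total, 6 rose and 1 fell. Ndufa6, an accessory subunit at the joint of complex I, was at 2.63, 3.11, 3.0, 2.77 and 2.88 in the PBS mice, 3.89, 3.9, 4.4, 4.26 and 3.65 in the mono-IL10 mice and 3.42, 3.26, 3.13, 3.74 and 3.07 in the IL10/2-Trikine mice. The mono-IL10 mice lay above every PBS mouse and overlapped with 1 IL10/2-Trikine mouse (0.48 ± 0.067, adjusted p = 2.89e-05), and Ndufa6 was lower with IL10/2-Trikine than with mono-IL10 (-0.27 ± 0.069, adjusted p = 0.0126). Ndufb1 (0.39 ± 0.062, adjusted p = 0.00011), Ndufv3 of the NADH-oxidizing part (0.39 ± 0.059, adjusted p = 6.47e-05) and Cox7a1 (0.56 ± 0.17, adjusted p = 0.0201), an isoform known from heart and skeletal muscle that had 937 UMIs in all, rose too. Sdhb was at 1.07, 1.19, 1.06, 1.08 and 1.05 in the PBS mice, 0.995, 0.896, 0.919, 0.955 and 0.93 in the mono-IL10 mice and 1.05, 0.976, 1.01, 0.873 and 1.0 in the IL10/2-Trikine mice. Each mono-IL10 mouse was below each PBS mouse (-0.22 ± 0.057, adjusted p = 0.00747), whereas the IL10/2-Trikine mice reached into the mono-IL10 range. Atp5b also fell with mono-IL10 (-0.17 ± 0.059, adjusted p = 0.0353). Sdhc, of the same complex as Sdhb, rose instead, and so did Ndufa1, Uqcrq and Cox6c of the fixed panel. In the same cells neutrophil markers stood at 3.08 to 4.75 UMIs per 10000 in the mono-IL10 mice against 4.96 to 7.55 in PBS and fibroblast markers at 0.0973 to 0.141 against 0.177 to 0.281, with 6 of 6 detected of each list, while UMIs a cell overlapped (5292 to 8124 against 5284 to 6875). Their part in the changes was not tested.

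Few OXPHOS genes passed in these cells when the cytokines were set against each other. With IL10/2-Trikine against mono-IL10, 0 of 82 genes rose and 3 fell, where 5.52% of all genes rose and 7.53% fell. With total UMIs as the scale 9 rose and 0 fell, and the median of all genes was 0.10. Cox7a2l was at 1.84, 2.2, 2.04, 2.21 and 2.19 in the PBS mice, 2.37, 2.46, 2.61, 2.62 and 2.64 in the mono-IL10 mice and 2.15, 1.95, 2.35, 2.06 and 2.05 in the IL10/2-Trikine mice. It was highest in the mono-IL10 mice, which did not overlap with the IL10/2-Trikine mice (-0.27 ± 0.065, adjusted p = 0.00935). Uqcrh, the hinge protein of complex III, was the other gene beside Ndufa6 (-0.17 ± 0.052, adjusted p = 0.0351). A macrophage-like cell held 2755 to 3435 UMIs on average in the IL10/2-Trikine mice and 5292 to 8124 in the mono-IL10 mice. Tumor markers stood at 0.894 to 1.16 against 0.394 to 0.666 UMIs per 10000, and T cell markers at 0.411 to 0.82 against 0.167 to 0.4. NK markers stood at 0.0774 to 0.147 against 0.0141 to 0.0719, and neutrophil markers at 4.93 to 7.07 against 3.08 to 4.75. Their part in the changes was not tested.

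T cells were few, with 17 to 160 cells and 46789 to 661363 UMIs a mouse. A T cell held 3244 to 4029 UMIs on average in the PBS mice, 3829 to 5480 in the mono-IL10 mice and 2752 to 3166 in the IL10/2-Trikine mice. The part of this depth in the changes was not tested. With IL10/2-Trikine against PBS, 11 of 73 OXPHOS genes rose and 0 fell, where 5.14% of all genes rose and 3.83% fell. ATP synthase gave 5 of them, complex I 3, complex III 2 and complex IV 1. Ndufc1 was at 1.92, 2.19, 1.44, 1.83 and 1.95 in the PBS mice, 2.58, 2.24, 2.43, 2.02 and 2.59 in the mono-IL10 mice and 2.45, 4.48, 2.03, 2.99 and 3.81 in the IL10/2-Trikine mice. The lowest IL10/2-Trikine mouse lay within the PBS range (0.86 ± 0.19, adjusted p = 0.00627). Atp5k was at 1.63, 1.34, 1.96, 1.15 and 1.19 in the PBS mice, 1.89, 1.95, 2.18, 1.77 and 2.17 in the mono-IL10 mice and 1.9, 2.52, 2.64, 2.99 and 2.74 in the IL10/2-Trikine mice and showed a small overlap between IL10/2-Trikine and PBS (0.78 ± 0.19, adjusted p = 0.011). Ndufa3 (0.57 ± 0.16, adjusted p = 0.0277), Atp5mpl (0.54 ± 0.16, adjusted p = 0.0329) and Ndufb1 (0.49 ± 0.15, adjusted p = 0.0423) were among the others. None of the fixed panel passed in T cells, and Ndufs1 with 120 UMIs was too low to test.

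The T cell count depended on single mice. It was 4 without IL10/2-Trikine mouse 2, 5 without PBS mouse 2, PBS mouse 3, IL10/2-Trikine mouse 3 or IL10/2-Trikine mouse 4, 6 without PBS mouse 4 or IL10/2-Trikine mouse 5, and 7 without PBS mouse 5 or any of mono-IL10 mice 1, 2 and 5. It was 1 with no filter on low counts and 2 with at least 30 cells, which left 4 PBS, 4 mono-IL10 and 3 IL10/2-Trikine mice. Without the cycling clusters 0 genes passed, but only 3 IL10/2-Trikine mice and 76 cells entered. The median over the OXPHOS genes was then 0.20, against 0.17 with all cells, and Ndufc1 changed by 0.92 (adjusted p = 0.202), Ndufa3 by 0.56 (adjusted p = 0.223), Atp5k by 0.57 (adjusted p = 0.464) and Atp5mpl by 0.11 (adjusted p = 0.897). T cell markers were at 36.9 UMIs per 10000 in mono-IL10 and 28.7 in PBS but 18.0 in IL10/2-Trikine mice, and NK markers at 6.21 in IL10/2-Trikine against 2.6 in PBS, with all 6 of 6 NK markers detected in each group. Macrophage markers were at 7.17, 8.11 and 6.91 in PBS, mono-IL10 and IL10/2-Trikine, with 10 of 10 detected. Their part in the result was not tested.

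With mono-IL10 against PBS, 0 of 73 OXPHOS genes passed in T cells by edgeR and 0 by DESeq2, where 1.72% of all genes passed in either direction. An unadjusted p under 0.05 was reached by 18 (24.7%), against 15.1% of all genes, and 63 of the 73 had a positive log2 fold change, against 50.9% of all genes. The median was 0.21, and 0.0047 over all genes. IL10/2-Trikine against mono-IL10 raised 1 gene and lowered 3, where 6.05% of all genes rose and 6.21% fell. The split was 3 and 3 with relative log expression scaling and 4 and 2 with total UMIs. Uqcr11, a small subunit of complex III, was at 3.65, 3.3, 2.77, 3.13 and 3.74 in the mono-IL10 mice and 5.17, 4.87, 5.28, 4.73 and 3.81 in the IL10/2-Trikine mice, which were all higher (0.50 ± 0.14, adjusted p = 0.0221). Ndufa6 went the other way, at 3.77, 3.39, 4.38, 3.7 and 3.46 in the PBS mice, 4.91, 4.39, 4.61, 4.52 and 4.08 in the mono-IL10 mice and 2.63, 2.91, 3.45, 2.24 and 2.93 in the IL10/2-Trikine mice. Its IL10/2-Trikine mice lay below all mono-IL10 mice (-0.66 ± 0.14, adjusted p = 0.0018). Atp5c1 (-0.55 ± 0.15, adjusted p = 0.0179) and Atp5d (-0.42 ± 0.13, adjusted p = 0.0301), the γ and δ subunits of the rotor, fell too. This count of 4 was 2 without mono-IL10 mouse 4, 1 without IL10/2-Trikine mouse 2, 1 when thinned and 0 without the cycling clusters, with 3 IL10/2-Trikine mice left. It was 6 without PBS mouse 2, PBS mouse 3 or mono-IL10 mouse 2.

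NK cells were fewest, with 33913 to 333657 UMIs a mouse. An NK cell held 3391 to 4797 UMIs on average in the PBS mice, at least 5508 in the mono-IL10 mice and 2469 to 3231 in the IL10/2-Trikine mice. The part of this depth in the changes was not tested. IL10/2-Trikine against PBS raised 4 of 72 OXPHOS genes and lowered 0, where 2.46% of all genes rose and 1.95% fell. Atp5k was at 1.68, 1.35, 1.3, 1.56 and 1.24 in the PBS mice, 1.76, 2.17, 2.11 and 2.35 in the mono-IL10 mice and 2.42, 2.34, 3.15, 2.5 and 2.34 in the IL10/2-Trikine mice. All IL10/2-Trikine mice lay above all PBS mice (0.80 ± 0.21, adjusted p = 0.0293). Ndufa3 was at 1.34, 3.32, 2.12, 2.44 and 3.47 in the PBS mice, 3.08, 3.93, 3.0 and 3.22 in the mono-IL10 mice and 4.55, 4.29, 4.2, 4.88 and 4.75 in the IL10/2-Trikine mice, again with no overlap between IL10/2-Trikine and PBS (0.78 ± 0.18, adjusted p = 0.0137). Atp5mpl was at 6.04, 2.7, 3.59, 4.39 and 3.96 in the PBS mice, 3.94, 4.81, 5.26 and 5.36 in the mono-IL10 mice and 6.4, 7.41, 7.88, 5.83 and 6.25 in the IL10/2-Trikine mice, where 1 PBS mouse reached into the IL10/2-Trikine range (0.77 ± 0.18, adjusted p = 0.0124). Atp5j2, the f subunit of ATP synthase, was at 4.03, 4.99, 5.06, 3.7 and 5.95 in the PBS mice, 6.75, 5.52, 6.07 and 6.23 in the mono-IL10 mice and 7.68, 7.02, 7.18, 6.07 and 7.03 in the IL10/2-Trikine mice and did not overlap between IL10/2-Trikine and PBS (0.57 ± 0.15, adjusted p = 0.0312). None of the fixed panel passed, and Ndufs1 with 76 UMIs was too low to test.

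These 4 calls in NK cells were near the limit of the data. There were 0 with every mouse thinned to 1 total, 1 without PBS mouse 2 or PBS mouse 4, and 2 without cycling cells or without cells that held a tumor marker UMI, which left 4 PBS mice. A minimum of 30 cells left 1 PBS mouse, so that its count of 0 says nothing about the 4 calls. Tumor markers stood at 1.06, 0.595 and 0.876 UMIs per 10000 in the NK cells of PBS, mono-IL10 and IL10/2-Trikine mice, with 5 to 6 of 7 detected and Cldn4 at 0 throughout, and macrophage markers at 5.22, 7.10 and 7.77. Mono-IL10 against PBS gave 0 of 72 by edgeR and 0 by DESeq2, with 10 (13.9%) at an unadjusted p under 0.05, against 11.6% of all genes, where 0.297% of all genes passed in either direction. IL10/2-Trikine against mono-IL10 gave 0 of 72 by both tools, also with 10 at an unadjusted p under 0.05, against 16.1% of all genes, where 2.38% of all genes passed.

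Some genes rose with IL10/2-Trikine in more than 1 of the 4 classes tested. Atp5k, Atp5mpl and Ndufa3 passed in all 4 classes (in NK cells not when thinned to 1 total), and Atp5e, the ε subunit of ATP synthase, Ndufb1, Ndufc1 and Uqcr11 in T cells, macrophage-like and tumor-like cells. Atp5j2 passed in NK cells, macrophage-like and tumor-like cells. Another 14 passed in 2 classes and 23 in 1, while 40 of the 85 rose in none. Of the 72 OXPHOS genes tested in all 4 classes, 3 rose in all (4.17%) and 8 in at least 3 (11.1%), where 0.532% and 2.17% of the 2254 genes tested in all 4 did. Uqcrfs1 fell in both macrophage-like and tumor-like cells. The classes come from the same mice and libraries and are not independent. With mono-IL10, 16 rose in 2 classes, 19 in 1 and 50 in none. Of those tested in all 4 classes, 22.2% rose in at least 2, where 4.44% of the 2254 genes did, and with total UMIs as the scale only 7 rose in tumor-like and 8 in macrophage-like cells.

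The genes that rose were mostly those with short transcripts. Over the 79 OXPHOS genes of tumor-like cells with a transcript length in the annotation, Spearman's correlation of length with the change with IL10/2-Trikine was -0.61, and 0.00 over all genes tested. At or under the median length of 732 bases, 29 of 40 rose and 0 fell, and among longer ones 13 of 39 rose and all 9 fell. Atp5k has 321.5 bases, Ndufa3 433 and Atp5mpl 489, against 1142 for Sdhb, 1312 for Ndufv2 and 1993 for Sdhc. Of all 507 genes as short as the shorter OXPHOS genes, 34.5% rose. In macrophage-like cells the correlation was -0.39, with 14 of 41 shorter genes and 5 of 40 longer ones that rose, and -0.067 over all genes, of which 19.95% of the 411 equally short ones rose. In T cells it was -0.31 (-0.12 over all genes) and in NK cells -0.20 (-0.14 over all genes). With mono-IL10 against PBS the correlation was -0.51 in tumor-like cells (-0.28 over all genes) and -0.52 in macrophage-like cells (-0.075 over all genes). For that comparison it was -0.21 in T cells (-0.28 over all genes) and -0.038 in NK cells (-0.29 over all genes). These correlations are descriptions over genes that share libraries, depth and complexes. When each mouse's trend of level on length was taken out, an alternative chosen after seeing the data, IL10/2-Trikine against PBS gave 34 that rose and 9 that fell in tumor-like cells, 11 and 2 in macrophage-like cells, 5 and 1 in T cells and 0 in NK cells, and 4 passed with mono-IL10 in tumor-like cells.

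**Figure D5:**
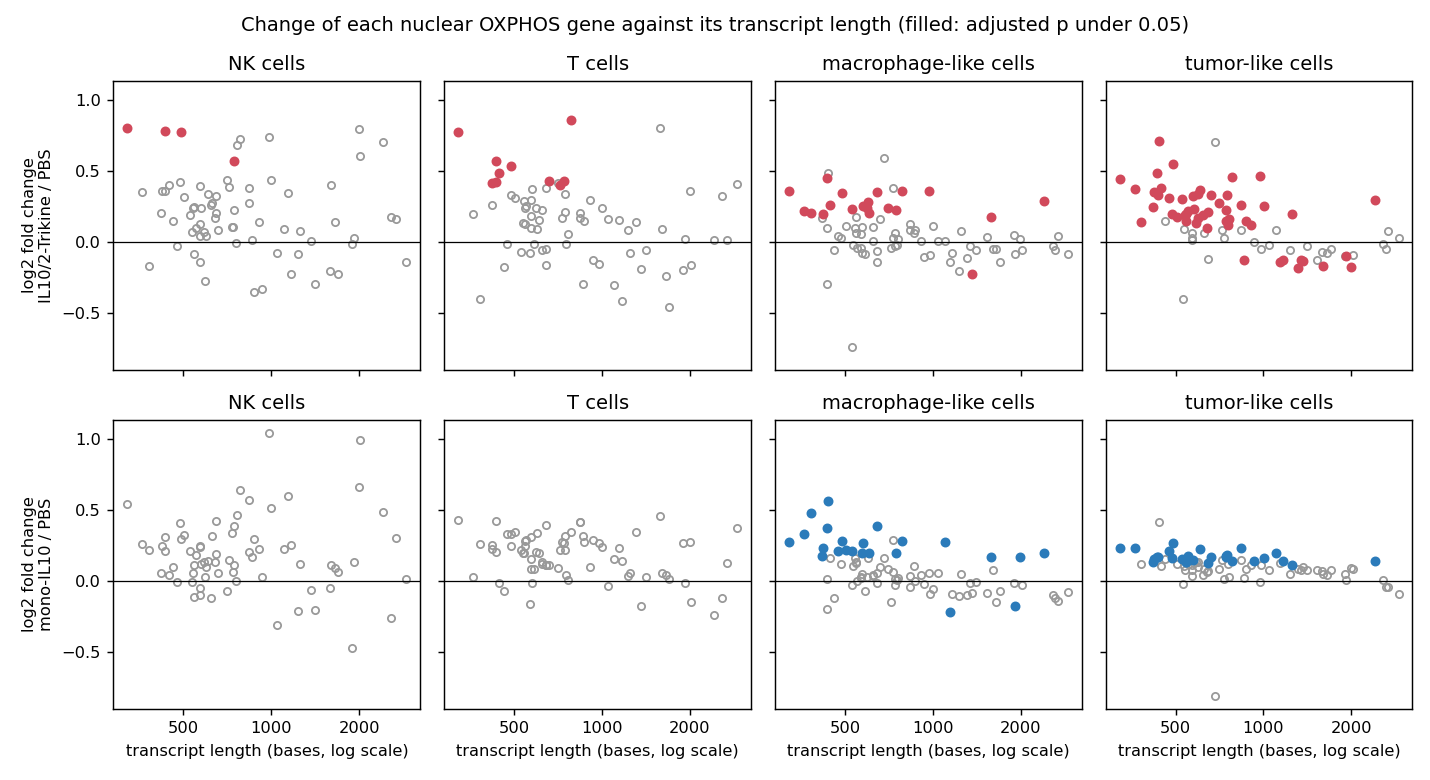
Log2 fold change of nuclear OXPHOS genes with IL10/2-Trikine against PBS (top) and mono-IL10 against PBS (bottom), with TMM scaling, over transcript length in bases (log axis), in the 4 classes of cells. Filled points have an adjusted p under 0.05. In tumor-like cells with IL10/2-Trikine all 9 genes that fell are longer than the median of 732 bases, and 29 of the 40 genes at or under it rose.

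Whether a change differed between tumor-like and macrophage-like cells was tested directly, with the mouse as a block. For IL10/2-Trikine against PBS, 6 of 82 OXPHOS genes differed, where 6.0% of all genes did. The count was 3 with total UMIs, 14 by DESeq2, 2 without PBS mouse 3, 1 without IL10/2-Trikine mouse 1, 10 without IL10/2-Trikine mouse 4, and 18, 11 and 16 without mono-IL10 mice 1, 2 and 3. Uqcrh changed more in tumor-like cells (log2 difference 0.27 ± 0.06, adjusted p = 0.00945), as did Uqcr10 (0.23 ± 0.05, adjusted p = 0.0172), both small subunits of complex III, and Ndufa2 (0.21 ± 0.05, adjusted p = 0.0256).

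For mono-IL10 against PBS, 11 of 82 differed, where 17.3% of all genes did. This count was 4 without PBS mouse 2, 6 without mono-IL10 mouse 2, 7 without PBS mouse 5 or mono-IL10 mouse 5 and 19 by DESeq2. Ndufa6 changed less in tumor-like cells (-0.37 ± 0.07, adjusted p = 0.000859), and Sdhb, which had fallen in macrophage-like cells alone, differed by 0.34 ± 0.07, adjusted p = 0.00425. Atp5g3, which encodes the c ring of ATP synthase (0.29 ± 0.06, adjusted p = 0.0012), and Ndufa4 (0.27 ± 0.05, adjusted p = 0.00209) changed more in tumor-like cells. For IL10/2-Trikine against mono-IL10, 14 differed, where 13.3% of all genes did, and 9 without IL10/2-Trikine mouse 1 or IL10/2-Trikine mouse 4. The difference was positive for 11 and negative for 3, 8 and 4 with relative log expression scaling and 8 and 7 with total UMIs. Atp5e (0.24 ± 0.05, adjusted p = 0.00327), Ndufa2 (0.27 ± 0.05, adjusted p = 0.00335), Ndufb1 (0.29 ± 0.06, adjusted p = 0.00452) and Uqcrh (0.28 ± 0.06, adjusted p = 0.00457) led. In each of the 3 tests the share of OXPHOS genes that differed was near that over all genes.

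Between NK cells and T cells, 0 of 74 OXPHOS genes differed in any of the 3 comparisons by edgeR or DESeq2, where 0.077%, 0.128% and 0.796% of all genes did. An unadjusted p under 0.05 was reached by 5, 3 and 2 of them with IL10/2-Trikine against PBS, mono-IL10 against PBS and IL10/2-Trikine against mono-IL10. The share of all genes at that unadjusted threshold was not worked out, so these counts have no background. The smallest adjusted p of the latter 2 comparisons belonged to Ndufa10 (1.11 ± 0.43, adjusted p = 0.677) and Atp5o (0.55 ± 0.25, adjusted p = 0.479), and Ndufb2, Ndufs8, Atp5j2, Uqcrc2, Uqcrh and Ndufs7 were among the 4 smallest of at least 1 of the 3 comparisons. This does not show that the changes were alike in both.

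Tissue isoforms were rare in all classes. Cox7a1 was the one that moved in tumor-like cells, at 0.0305, 0.0329, 0.0358, 0.0362 and 0.0403 in the PBS mice, 0.0419, 0.0527, 0.0445, 0.0384 and 0.0558 in the mono-IL10 mice and 0.0477, 0.0599, 0.061, 0.0486 and 0.0684 in the IL10/2-Trikine mice. All IL10/2-Trikine mice lay above all PBS mice, at a very low level of 2144 UMIs in all (0.71 ± 0.13, adjusted p = 0.000876). Cox4i2, an isoform known from lung and low oxygen, and Cox6b2, known from testis, had 79 and 77 UMIs in tumor-like cells and were not tested there, and Cox6a2, another muscle isoform, had 109 and did not pass (0.70 ± 0.96, adjusted p = 0.654). In macrophage-like cells Cox4i2 had 540, Cox6b2 878 and Cox6a2 185 UMIs, and none passed. Cox7b2 and Cox8c had 0 UMIs and Cox8b 5 in tumor-like cells. Ndufa4 did not pass there with IL10/2-Trikine against PBS (0.15 ± 0.074, adjusted p = 0.169), and Cox7a2l rose with mono-IL10 (0.20 ± 0.054, adjusted p = 0.0413).

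The rest of the pathway was read from lists chosen along with the OXPHOS genes. Of the 13 subunits that mitochondrial DNA encodes, 7 rose and 1 fell in tumor-like cells with IL10/2-Trikine against PBS, and the shares over all genes given above (9.82% and 11.9% there) hold for these lists too. The complex I subunits mt-Nd6 (0.59) and mt-Nd3 (0.58) rose, and mt-Atp8 of ATP synthase fell (-0.42). Mono-IL10 raised 6 of them and lowered 0, mt-Atp8 among those that rose (0.24), beside mt-Nd3 (0.32) and mt-Co2 of complex IV (0.25). Against mono-IL10, IL10/2-Trikine raised 4 and lowered 5. In macrophage-like cells mt-Nd6 (0.55) and mt-Nd3 (0.39) were the 2 that rose with IL10/2-Trikine against PBS, 0 passed with mono-IL10, and both rose against mono-IL10. In T cells 0 of 12 passed against PBS, and mt-Atp8 (-0.98), mt-Atp6 (-0.31) and mt-Co2 (-0.27) were lower with IL10/2-Trikine than with mono-IL10.

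Assembly factors build the complexes without being part of them. In tumor-like cells 11 of 49 rose and 4 fell with IL10/2-Trikine against PBS, where 9.82% of all genes rose and 11.9% fell, led by Cox17, the copper chaperone of complex IV (0.60 ± 0.042, adjusted p = 1.28e-07), Pet100 (0.48), also of complex IV, and Ndufaf8 of complex I (0.37). Mono-IL10 raised 6 and lowered 0, where 3.78% of all genes rose and 2.18% fell. Sco2 (0.31), Cox20 (0.22) and Pet100 (0.21) rose the most. Against mono-IL10, IL10/2-Trikine raised 11 and lowered 4, where 16.4% of all genes rose and 16.9% fell. The largest changes were in Cox17 (0.47), Cox15 (0.32) and Coa5 (0.30). Cox17 and Pet100 also rose in macrophage-like cells with IL10/2-Trikine (0.37 and 0.42) and with mono-IL10 (0.32 and 0.58), where 4 of 48 rose and 1 fell in each comparison, against 8.33% and 14.2% of all genes that rose, so that the list was not above the background there. Bcs1l, which inserts the Rieske protein into complex III, rose there with IL10/2-Trikine (0.63), Fmc1 fell with mono-IL10 (-0.31), and Sdhaf2 was the 1 gene that differed between the cytokines (-0.39). In T cells 3 of 12 rose with IL10/2-Trikine against PBS, Cmc2 (1.40), Cox17 (0.96) and Pet100 (0.96), where 5.14% of all genes rose. Pet100 (0.86) and Cox17 (0.71) rose with mono-IL10, where 1.72% of all genes passed in either direction. There, 0 of 12 differed between the cytokines.

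Of 13 regulators of mitochondrial genes, 2 rose and 0 fell in tumor-like cells with IL10/2-Trikine against PBS, where 9.82% of all genes rose. Ppargc1b, a coactivator of the PGC-1 family that promotes mitochondrial biogenesis, was at 0.0238, 0.0201, 0.0166, 0.0131 and 0.0217 in the PBS mice, 0.0206, 0.0225, 0.019, 0.0251 and 0.0164 in the mono-IL10 mice and 0.0496, 0.0391, 0.0472, 0.0472 and 0.0347 in the IL10/2-Trikine mice in tumor-like cells. The IL10/2-Trikine mice stood apart from both other groups, at a low level of 1194 UMIs in all (1.18 ± 0.16, adjusted p = 9.81e-05). Its partner Esrra, the nuclear receptor ERRα, was the other (0.25 ± 0.071, adjusted p = 0.0189). Against mono-IL10, 3 rose and 2 fell, where 16.4% and 16.9% of all genes did. Ppargc1b (1.07), Esrra (0.35) and the mitochondrial RNA polymerase Polrmt (0.26) were those that rose. Mono-IL10 against PBS raised only Yy1 (0.12), where 3.78% of all genes rose. In macrophage-like cells 1 of 12 rose in each comparison with PBS, Myc with IL10/2-Trikine (0.50 ± 0.11, adjusted p = 0.00386) and Esrra with mono-IL10 (0.45). Of all genes, 8.33% and 14.2% rose there, so that the list was near or below the background. Myc was higher (0.57) and Nrf1 lower (-0.29) with IL10/2-Trikine than with mono-IL10, where 5.52% of all genes rose and 7.53% fell. In T cells 0 of 3 passed in each comparison.

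Enzymes of the tricarboxylic acid cycle feed complexes I and II. In tumor-like cells 6 of 13 fell and 1 rose with IL10/2-Trikine against PBS, where 11.9% of all genes fell and 9.82% rose, with Mdh2 (-0.29 ± 0.058, adjusted p = 0.00211) and Idh3g (-0.21) lower and Suclg2 higher (0.26). The split against mono-IL10 was 5 and 1, where 16.9% and 16.4% of all genes did so, the same genes leading (Mdh2 -0.36, Idh3g -0.29 and Suclg2 0.31), and 0 of 13 passed with mono-IL10 against PBS. Elsewhere Dlst was the 1 gene that passed, lower in macrophage-like cells (-0.26) and higher in T cells (0.90) with IL10/2-Trikine than with mono-IL10. A last list held 3 of the genes that the name rule leaves out. Cycs, which encodes cytochrome c, rose in T cells with IL10/2-Trikine against PBS (0.79 ± 0.18, adjusted p = 0.00747) and in tumor-like cells with mono-IL10 (0.28). Cyc1 of complex III fell in tumor-like cells with IL10/2-Trikine, by both comparisons (-0.14 with PBS and -0.18 with mono-IL10). Without cycling cells, however, the change of Cyc1 was 0.021 (adjusted p = 0.804) and -0.093 (adjusted p = 0.131). In macrophage-like cells 0 of the 3 passed in any comparison. In NK cells no gene of these lists passed in any comparison, with 10 assembly factors, 12 mitochondrially encoded subunits, 2 regulators, 4 cycle enzymes and 3 of the others tested.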

How the data were processed

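Single-cell 5′ RNA libraries (10x Genomics GEM-X) of CD45-enriched tumor cells were counted by the authors with Cell Ranger on GRCm39, and the deposited files hold raw UMI counts per gene and cell, with no normalization, and counts of the hashtag oligos. The authors' annotation table gave the mouse and cluster of T and NK cells (their tools included Seurat 5.1.0 and DESeq2 1.46.0, per the labels). The table held cells with 1 hashtag or none and 0 hashtag doublets. Of 2084 annotated cells, 1383 had a mouse and were used, and 7858 cells of a group not analysed here were not. Other cells were kept at 1000 genes or more and at most 10% mitochondrial UMIs, the limits the study gives. They were assigned to mice with Seurat's HTODemux (Seurat 5.3.0, quantile 0.99), which also removed hashtag doublets; doublets of 2 cells from 1 mouse remain. They were clustered by k-means (60 clusters on 41 principal components of 2000 variable genes, scikit-learn 1.9.0) and named from marker lists.

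UMI counts were summed per mouse and class, mice with fewer than 10 cells in a class were left out, and low genes were dropped with edgeR's filterByExpr. edgeR 4.0.16 (R 4.3.3) quasi-likelihood fits with TMM scaling covered the 3 treatments of a class together, with Benjamini-Hochberg adjustment over all genes tested and a threshold of 0.05. Differences between classes were tested as an interaction with the mouse as a block. DESeq2 1.42.0 and other scalings, filters, thinning, cell sets and left-out mice served as alternatives, and the fits were tested on simulated data. Cycling cells were the authors' cycling clusters among T and NK cells, and elsewhere the cells with a UMI of Mki67 or Top2a. UMIs a mouse ranged from 1085330 to 14390098 in macrophage-like cells and were far fewer in lymphocytes, where only larger changes can be detected.

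Genes named in the text were Ndufs1, Ndufa1, Sdha, Sdhb, Uqcrc1, Uqcrq, Cox4i1, Cox6c, Atp5b and Atp5g1 (the fixed panel) in every class, the 4 genes with the largest rise and the 4 with the largest fall among those past the threshold in each comparison, the tissue isoforms of complex IV with Ndufa4 and Cox7a2l, the 4 smallest adjusted p of each test of a difference, and up to 3 genes past the threshold of each list (mitochondrially encoded subunits, assembly factors, regulators, tricarboxylic acid cycle enzymes, subunits and cytochrome c missed by the name rule). Values of 1 gene that this rule names are not reported here. Further genes are named where counts of genes across classes or directions are explained. The genes and lists were chosen with earlier results of these data known. Transcript lengths are the median over a gene's protein-coding transcripts in the GENCODE annotation of GRCm38, matched by Ensembl ID, and promoters came from RefSeq (GRCm38.p6), matched by symbol. No coordinates of that build were joined to the GRCm39 counts.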

Additional observations from a re-analysis of the deposited data

Results flagged for a closer look

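In 8 of 138 groups of 4 or 5 mice that were looked at, 1 mouse stood apart from the others by a gap that chance gives in about 1 of 20 groups, or 6.9 of the 138, so that the number is near that of chance. The summed OXPHOS level of T cells was 2.57% in 1 PBS mouse, with the others from 2.69% to 2.73%. Mitochondrial UMIs of NK cells were 1.47% in 1 mono-IL10 mouse (others 1.56% to 1.58%) and 1.32% in 1 IL10/2-Trikine mouse (others 1.61% to 1.72%). Sdha, the flavoprotein of complex II, was at 2.61 UMIs per 10000 in NK cells of 1 PBS mouse (others 0.743 to 1.04), at 1.94 in those of 1 mono-IL10 mouse (others 1.01 to 1.15) and at 0.711 in tumor-like cells of 1 IL10/2-Trikine mouse (others 0.623 to 0.643). Sdhb was at 1.19 in macrophage-like cells of 1 PBS mouse (others 1.05 to 1.08), and Uqcrc1, a core subunit of complex III, at 0.764 in those of 1 mono-IL10 mouse (others 0.855 to 0.887).

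The change in level differed between tumor-like and macrophage-like cells for 6 OXPHOS genes with IL10/2-Trikine against PBS, 11 with mono-IL10 against PBS and 14 with IL10/2-Trikine against mono-IL10, by a test of the difference itself. These are counts of 82 genes tested, and 6.0%, 17.3% and 13.3% of all genes differed, which is near the share of the OXPHOS genes. With 1 mouse left out the counts ranged from 1 to 18, 4 to 16 and 9 to 16. For IL10/2-Trikine against PBS, the log2 difference, tumor-like minus macrophage-like, was 0.27 for Uqcrh, 0.23 for Uqcr10 and 0.21 for Ndufa2. For mono-IL10 against PBS it was -0.37 for Ndufa6, 0.29 for Atp5g3, 0.27 for Ndufa4 and 0.34 for Sdhb. For IL10/2-Trikine against mono-IL10 it was 0.24 for Atp5e, 0.27 for Ndufa2, 0.29 for Ndufb1 and 0.28 for Uqcrh.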

How the results depend on the processing

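The counts of OXPHOS genes past the threshold were recomputed under 405 alternatives in all, and 336 stayed within 1.5 times the reported count. Of these, 127 belong to the 6 counts reported as 0, of which 126 stayed there, and for the 12 counts above 0, 210 of 278 stayed; the sign of the median OXPHOS change turned in 30. Of IL10/2-Trikine against PBS in NK cells (4 reported), 2 passed with no filter on low counts, 2 without cycling cells, 2 without cells with a tumor marker UMI, and 0 with the length trend taken out or thinned to 1 total; at least 30 cells a mouse also gave 0, but left 1 PBS mouse and says nothing about the calls. In T cells (11), 1 passed with no filter, 6 with the length trend taken out, 6 thinned, 0 without cycling cells (3 IL10/2-Trikine mice left) and 2 with at least 30 cells (also 3). In macrophage-like cells (21), 11 passed with no filter, 13 with the length trend taken out and 10 thinned.

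Of mono-IL10 against PBS, 1 gene passed in T cells (0 reported) and 7 in macrophage-like cells (24) when thinned. In tumor-like cells (29) 9 passed with total UMIs, 46 by DESeq2, 4 with the length trend taken out, 19 thinned, 11 without cycling cells and 44 from 40 clusters, where 1 cluster of 2209 cells counted as tumor-like is led by the mast cell genes Tpsb2, Mcpt1 and Cpa3. Of IL10/2-Trikine against mono-IL10, 7 passed in T cells (4) with the length trend taken out, 1 thinned, 0 without cycling cells, 2 without cells with a tumor marker UMI and 2 with at least 30 cells. In macrophage-like cells (3) 9 passed with total UMIs, 0 thinned and 5 from 40 clusters. For the difference between tumor-like and macrophage-like cells, 3 passed with total UMIs and 14 by DESeq2 with IL10/2-Trikine against PBS (6), 7 with no filter and 19 by DESeq2 with mono-IL10 against PBS (11), and 9 without cycling cells with IL10/2-Trikine against mono-IL10 (14). The cause of these shifts was not tested, other than that thinning, the larger cell minimum and the left-out cells reduce the counts that enter.

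With 1 mouse left out at a time, the counts ranged from 1 to 4 in NK cells, 4 to 10 in T cells, 14 to 21 in macrophage-like and 45 to 53 in tumor-like cells for IL10/2-Trikine against PBS. They ranged from 13 to 39 in tumor-like cells for mono-IL10 against PBS and from 1 to 6 in T cells for IL10/2-Trikine against mono-IL10. The differences between tumor-like and macrophage-like cells ranged from 1 to 18, 4 to 16 and 9 to 16 in the order of comparisons above. Of 134 named calls (a gene in 1 class and comparison), followed over 3191 alternatives, 2765 results stayed past the threshold and 424 did not. Most of these alternatives left out 1 mouse, where 1786 stayed and 220 did not. Fewer stayed without cycling cells (91, and 39 did not), thinned (74 and 42) and with the length trend taken out (86 and 36). Of all 3191 results, only 2 changed sign. These were Cyc1 in tumor-like cells with IL10/2-Trikine against PBS, at 0.021 without cycling cells, and Ndufa1 there with mono-IL10 against PBS, at -0.023 with the length trend taken out. No paired analysis was possible because each mouse had 1 treatment and the hashtag numbers of different libraries name different mice.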
